A study of Mus musculus with 170 samples.

Results

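Kidney tubular cells were sorted by flow cytometry from young and old mice, and their poly(A) RNA was sequenced from the 3′ end. All 7 libraries labelled as kidney tubular were taken, out of 170 libraries from 23 sorted cell types, and every gene in the table was compared as old minus young. The young group had 3 libraries from mice aged 2 months and the old group had 4 from mice aged 22 to 24 months; values per library are given in order of replicate number. Every library held cells pooled from 5 animals on a C57/Bl6 background, with no other genotype or treatment in the labels, so the p-values measure the spread between pools. The labels used here give neither the sex of the animals nor the surface markers of this sort. The kidney endothelial libraries of the same study, 4 young and 3 old, served as the comparison cell type.

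The renal tubule reclaims most of what the glomerulus filters. Its proximal part takes up filtered protein through the receptors megalin and cubilin, recovers glucose, amino acids, phosphate and bicarbonate with sodium-coupled carriers, secretes organic acids and drugs, and makes glucose and creatine precursors. The loop of Henle and the distal convoluted tubule recover salt, calcium and magnesium. In the collecting duct, principal cells move sodium and water under aldosterone and vasopressin, and intercalated cells move acid and base with a proton pump.

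The libraries held 2064753 to 3939847 counts. Young library 1 stood apart in the level of 3 of 4 chromosome Y genes examined. In TMM-scaled CPM, the counts of a gene relative to the library's total, Ddx3y, a chromosome Y helicase gene, was at 23.4, 0.462 and 0.352 CPM in the young libraries and 0.326, 0.323, 0 and 1.32 CPM in the old ones. Eif2s3y and Kdm5d, also on chromosome Y, were at 20.8 and 18.6 CPM in young library 1 and at most 1.06 and 0.704 CPM in the others. Uty, the fourth, had reads in every library, at 38.3, 18.9 and 15.5 CPM in the young libraries and 20.5, 14.6, 11.7 and 23.5 CPM in the old ones. Xist, the RNA of the inactive X, was present in every library, at 247, 318 and 313 CPM in the young libraries and 438, 426, 395 and 522 CPM in the old ones. The other 6 libraries had at most 1.32 CPM of Ddx3y. Old library 2 stood apart in another way. Kap, an androgen-regulated kidney gene, was at 545, 679.9 and 310.1 CPM in the young libraries and 17.6, 216, 28.4 and 20.3 CPM in the old ones, so old library 2 was the highest of its group and still under the lowest young library. The 10 genes listed as higher in male kidney summed to 334 to 721 CPM in young libraries and 52.2 to 256 CPM in old ones. Kap made up most of that sum in the young libraries and in old library 2, so the sum mainly repeats Kap. Of 5 members tested, 1 was higher and 1 lower. The part of sex in the results was not tested beyond leaving libraries out. Results are given with all 7 libraries and, where the call or its size depends on it, without young library 1.

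**Figure D1:**
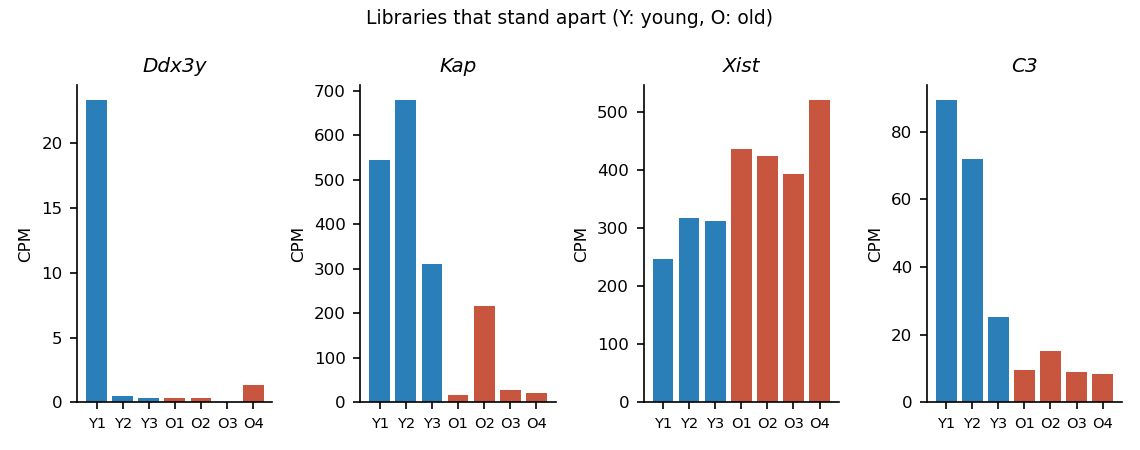
Levels of 4 genes in each of the 7 kidney tubular libraries, in CPM (counts scaled to library size), 1 bar a library; Y1 to Y3 are young and O1 to O4 old. Ddx3y is seen in young library 1, at 23.4 CPM, and Kap at 216 CPM in old library 2 lies between the other old libraries and the young ones.

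The label was checked against the cell type's markers on a scale set over all 14 kidney libraries. The general tubule genes Epcam, an epithelial adhesion gene, and Cdh16, the kidney cadherin, were at 757 to 1004 and 847 to 1123 CPM in the tubular libraries, against 25.7 to 62.4 and 22.5 to 61.7 CPM in the endothelial ones. The endothelial genes Pecam1 and Kdr were at most 10.8 and 6.97 CPM in the tubular libraries. The distal and collecting duct markers were far above the endothelial libraries: Atp6v1g3, a proton pump subunit of intercalated cells, was at 2137 to 4834 CPM against 12.3 to 79 CPM, and the water channel gene Aqp2 of principal cells at 1119 to 3108 CPM against 86.8 to 386 CPM. The proximal markers were much nearer to the endothelial level. Lrp2, which encodes megalin, was at 113 to 191 CPM in young and 70.4 to 94.2 CPM in old tubular libraries, against 26.2 to 52.5 CPM in endothelial ones. Slc34a1, the main renal phosphate carrier, was at 219 to 531 CPM and 106 to 165 CPM against 50.1 to 147 CPM, so old tubular and endothelial libraries overlapped. The libraries thus carried markers of several nephron segments, with the proximal markers nearest to the endothelial level. A gene that fell may have fallen in fewer cells or with less RNA per cell, which bulk samples cannot tell apart. Whether part of the proximal RNA was carried over from outside the sorted cells was not tested.

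Of 13771 genes with enough counts to test, 494 (3.59%) were higher and 545 (3.96%) lower in old than in young tubular cells at an edgeR adjusted p under 0.05, which is 7.54% in either direction. The median log2 fold change, on which 1 step is 2-fold, was -0.01 over all genes tested. Every old library lay above every young one for 1522 genes (11.1%) and below for 1269 (9.22%). At least 2-fold changes were seen in 213 of the higher and 259 of the lower genes. Over 30 lists of pathway genes, 585 of 699 distinct genes were tested, of which 33 were higher and 82 lower. The counts depended on which library was left out, and each such fit also had fewer libraries to test with. With young library 1 left out, 160 genes (1.12%) were higher and 189 (1.33%) lower of 14259 tested. All 1039 genes called with 7 libraries kept their sign, and 334 of them were called again. Without young library 2 the counts were 295 and 312, without old library 1 they were 298 and 340, and without old library 4 they were 266 and 287. They changed less without young library 3, at 462 and 528, old library 2, at 540 and 454, or old library 3, at 394 and 370.

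**Figure D2:**
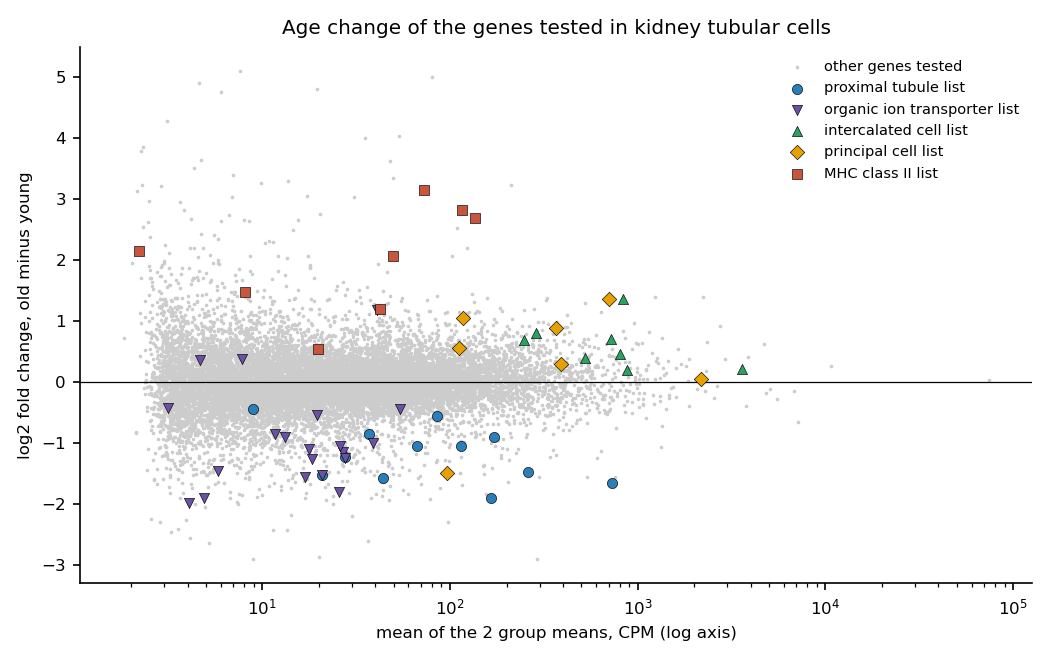
Log2 fold change (old minus young) against mean level in CPM on a log axis for the 13771 genes tested, 1 point a gene, with 5 gene lists marked. Proximal tubule and organic ion transporter genes lie mostly below 0, intercalated and principal cell genes mostly above 0, and MHC class II genes above 0.

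Most proximal tubule markers were lower in old tubular cells. Of 12 proximal tubule markers tested, none was higher and 7 were lower, all 12 had a negative log2 fold change, and their median was -1.15. The summed list was 2497 ± 581 CPM (SD, n = 3) in the young libraries and 961 ± 50.8 CPM (SD, n = 4) in the old ones, without overlap (exact permutation test over libraries, two-sided, p = 0.0571, the smallest that 3 against 4 libraries can give). Leaving out young library 1, 4 of 12 were lower, with a median of -0.92. The share of all genes that were lower was 3.96%, and 1.33% without young library 1. Lrp2 (chr2:69424340-69586065, GRCm38) was at 194, 151 and 114 CPM in the young libraries and 67.8, 68.6, 86 and 78.6 CPM in the old ones (log2 fold change -1.05 ± 0.17 (SE), edgeR adjusted p = 0.00381). Every young library lay above every old one, and without young library 1 the log2 fold change was -0.85 (adjusted p = 0.0248). Slc34a1 (chr13:55398187-55415592) was at 539, 377 and 221 CPM in the young libraries and 102, 148, 151 and 154 CPM in the old ones (log2 fold change -1.48 ± 0.24 (SE), edgeR adjusted p = 0.00376). The groups did not overlap, old library 1 was the lowest, and without young library 1 the value was -1.15 (adjusted p = 0.0225). Aqp1, the water channel of the proximal tubule and thin limb, was at 1164, 849 and 1286 CPM in the young libraries and 473, 384, 245 and 326 CPM in the old ones (log2 fold change -1.65 ± 0.20 (SE), edgeR adjusted p = 8.07e-04). The lowest young library was well above the highest old one, and the value was -1.61 (adjusted p = 0.00525) without young library 1. Acsm2, a mitochondrial acyl-CoA synthetase, was at 445, 199 and 133 CPM in the young libraries and 51.2, 56.6, 95.2 and 78.3 CPM in the old ones (log2 fold change -1.91 ± 0.33 (SE), edgeR adjusted p = 0.0053). Young library 1 was the highest by far, and without it the value was -1.28 (adjusted p = 0.0204).

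Among 16 tested genes of protein uptake, Lrp2 and Amn were lower and none was higher, and the median log2 fold change was -0.03. Amn, the membrane partner of cubilin, was at 16.1, 13.9 and 13 CPM in the young libraries and 4.57, 6.79, 6.12 and 6.06 CPM in the old ones (log2 fold change -1.31 ± 0.25 (SE), edgeR adjusted p = 0.00828). All 3 young libraries were above all 4 old ones, and the call was lost without young library 1, at -1.22 (adjusted p = 0.0548). Cubn, which encodes cubilin itself, was at 13.5, 10.6 and 6.34 CPM in the young libraries and 9.13, 7.12, 6.68 and 7.65 CPM in the old ones (log2 fold change -0.44 ± 0.30 (SE), edgeR adjusted p = 0.418). The groups overlapped. Of 16 tested genes of phosphate, vitamin D and Klotho handling, Slc34a1 alone passed the threshold (median 0.21). Both counts rest on 1 or 2 genes, where 7.54% of all genes were called, so nothing is read from them. Kl, the FGF23 co-receptor Klotho, was at 267, 141 and 106 CPM in the young libraries and 181, 96.4, 179 and 144 CPM in the old ones (log2 fold change -0.22 ± 0.28 (SE), edgeR adjusted p = 0.691). Its groups overlapped, with young library 1 the highest, and its sign turned without that library, to 0.24 (adjusted p = 0.65).

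Among carriers of nutrients, organic ions and salt, nearly all genes that passed the test were lower in old libraries. Of 17 tested glucose and amino acid transporters 7 were lower and none was higher (median log2 fold change -0.69). Of 20 tested organic ion and drug transporters 8 were lower and 1 higher (median -1.07). Of 20 tested genes of sodium, acid-base, sulfate and water transport 7 were lower and none was higher (median -0.94). These counts without young library 1 were 1 lower of 17, 1 lower and 1 higher of 22, and 4 lower of 21, with medians of -0.52, -0.84 and -0.45. Over all genes tested, 3.96% were lower and 3.59% higher with 7 libraries, and 1.33% and 1.12% without young library 1. Without that library the lower counts of the glucose and amino acid list and of the organic ion list rest on 1 gene each.

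Slc6a18, an apical carrier of neutral amino acids, was at 91.7, 54 and 58.1 CPM in the young libraries and 20.9, 22.6, 17.3 and 15.6 CPM in the old ones (log2 fold change -1.87 ± 0.21 (SE), edgeR adjusted p = 5.96e-04). The groups were far apart, and the value without young library 1 was -1.60 (adjusted p = 0.00369). Slc7a9, the light subunit of the cystine carrier, had a log2 fold change of -1.89 (adjusted p = 0.0137), the basolateral glucose carrier Slc2a2 of -1.15 (adjusted p = 0.016) and the proton-coupled amino acid carrier Slc36a1 of -1.15 (adjusted p = 0.0219). All 3 were lower in every old library than in any young one, and all 3 calls were lost without young library 1 (adjusted p = 0.0852, 0.101 and 0.106). Slc5a2, the early proximal glucose carrier, had too few counts to test, at 2.19, 4.16 and 2.11 CPM in the young libraries and 0.979, 0.97, 0.556 and 0.527 CPM in the old ones.

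Slc22a12, the apical urate exchanger, was at 58.1, 35.6 and 26 CPM in the young libraries and 7.18, 12, 14.7 and 12.7 CPM in the old ones (log2 fold change -1.80 ± 0.29 (SE), edgeR adjusted p = 0.00333). Its fall was -1.43 (adjusted p = 0.0228) without young library 1. Slc22a6, the classical organic anion transporter, was at 50.03, 31.4 and 11.6 CPM in the young libraries and 5.87, 10.7, 12.8 and 14 CPM in the old ones (log2 fold change -1.53 ± 0.40 (SE), edgeR adjusted p = 0.0376). Young library 1 was the highest, the groups overlapped, and without that library the log2 fold change was -0.99 (adjusted p = 0.22). The organic cation extruder Slc47a1 had a log2 fold change of -1.25 (adjusted p = 0.0102), a call that was lost without young library 1 (adjusted p = 0.0676). Slc2a9, the other large urate carrier, moved the opposite way, from 24.5, 24 and 25.3 CPM in the young libraries to 65.9, 43.3, 57.6 and 62 CPM in the old ones (log2 fold change 1.18 ± 0.17 (SE), edgeR adjusted p = 0.00178). The young libraries were nearly equal, no old library came near them, and the value without young library 1 was 1.17 (adjusted p = 0.0131).

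Cldn2, the leaky claudin of the proximal tubule, was at 180.4, 118 and 69.3 CPM in the young libraries and 32, 40.4, 34.5 and 25.6 CPM in the old ones (log2 fold change -1.92 ± 0.26 (SE), edgeR adjusted p = 0.00152). It was among the 12 genes with the largest fall that met the naming rule, and the value without young library 1 was -1.54 (adjusted p = 0.00844). Slc4a4, the basolateral sodium-bicarbonate carrier, was at 269, 243 and 181 CPM in the young libraries and 88.7, 99, 126 and 145 CPM in the old ones (log2 fold change -1.04 ± 0.18 (SE), edgeR adjusted p = 0.00526). Car14, a membrane carbonic anhydrase, changed by -1.24 (adjusted p = 0.00487), and Slc5a12, a sodium-coupled lactate carrier, by -1.23 (adjusted p = 0.00784). Slc4a4 and Car14 stayed under the threshold without young library 1 (adjusted p = 0.0346 and 0.0337), while Slc5a12 did not (0.0547).

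**Figure D3:**
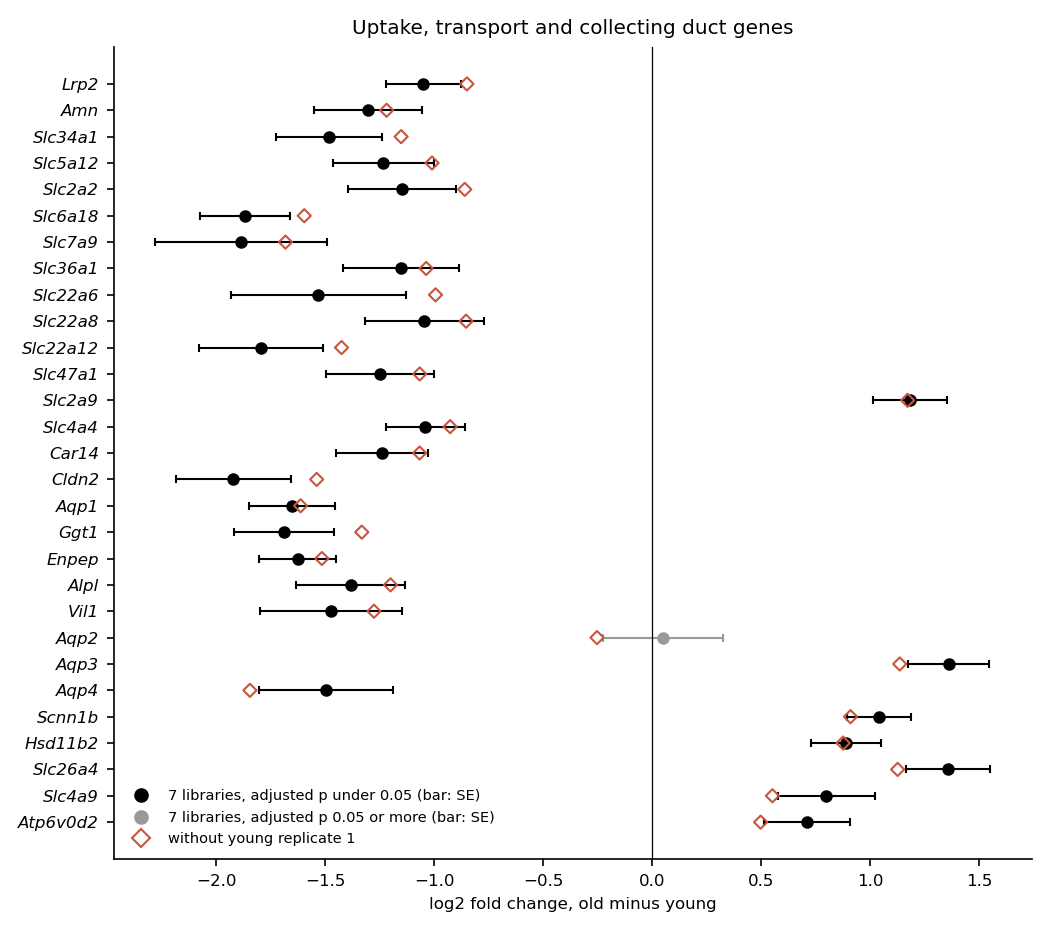
Log2 fold change (old minus young) of 29 genes of uptake, transport and the collecting duct, from 7 libraries (filled points, with bars of 1 SE) and without young replicate 1 (open diamonds). Apart from Slc2a9 at 1.18, the uptake and transport genes outside the collecting duct lie between -1.92 and -1.04. The genes were picked mostly from called members, so this range follows from the choice and does not describe the full lists. Cubn, at -0.44 and not called, is not shown. Most diamonds lie nearer to 0 than the filled points.

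Enzymes and structural genes of the brush border, the dense microvilli of the proximal cell, gave 5 lower genes of 16 tested, with none higher and a median log2 fold change of -0.67. Enpep, the aminopeptidase that trims angiotensin peptides, was at 49.3, 39.7 and 39.1 CPM in the young libraries and 16.6, 14.6, 13.1 and 12.4 CPM in the old ones (log2 fold change -1.63 ± 0.18 (SE), edgeR adjusted p = 5.96e-04). The libraries were tight within each age, and the value without young library 1 was -1.52 (adjusted p = 0.00428). Ggt1, the gamma-glutamyl transferase that breaks down glutathione, was at 253, 158 and 114 CPM in the young libraries and 53.8, 48.5, 69.3 and 50.1 CPM in the old ones (log2 fold change -1.69 ± 0.23 (SE), edgeR adjusted p = 0.00149). Alpl, an alkaline phosphatase, changed by -1.38 (adjusted p = 0.00604) and the microvillar actin bundler Vil1 by -1.47 (adjusted p = 0.0188), the latter losing its call without young library 1 (adjusted p = 0.107). Of 8 tested renin-angiotensin genes 3 were lower and 1 higher. Agt, angiotensinogen, was at 92.8, 67 and 41.9 CPM in the young libraries and 25.8, 27.2, 14.7 and 13.2 CPM in the old ones (log2 fold change -1.78 ± 0.29 (SE), edgeR adjusted p = 0.00384). Cltrn, collectrin, changed by -1.10 (adjusted p = 0.00423), and Atp6ap2, the prorenin receptor and proton pump partner, rose by 0.66 (adjusted p = 0.0215) on the log2 scale, a call lost without young library 1, at 0.53 (adjusted p = 0.102). The brush border count without that library was 3 lower of 17, and the renin-angiotensin count 3 lower and none higher of 9. All genes tested gave 3.96% lower and 3.59% higher with 7 libraries, and 1.33% and 1.12% without young library 1.

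Metabolic genes of the proximal cell were lower in part. Of 15 tested genes of gluconeogenesis and ammonia handling 4 were lower and none was higher (median -0.23). Among them were the glycerol kinase Gk at -1.15 (adjusted p = 0.00381), the pyruvate carboxylase Pcx at -1.19 (adjusted p = 0.00604) and Pck1 at -1.28 (adjusted p = 0.034). Pck1, the rate-limiting enzyme of glucose synthesis, was at 129, 152 and 79.9 CPM in the young libraries and 32.3, 29.1, 86.8 and 52.7 CPM in the old ones. The lowest young and the highest old library overlapped, and the call was lost without young library 1 (adjusted p = 0.111). Of 23 tested genes of amino acid, creatine and taurine metabolism 6 were lower and 1 higher (median -0.84). Gatm, the first enzyme of creatine synthesis, was at 292, 211 and 144 CPM in the young libraries and 73.1, 75.7, 89.3 and 99.7 CPM in the old ones (log2 fold change -1.38 ± 0.20 (SE), edgeR adjusted p = 0.0019). Ass1, which makes argininosuccinate, changed by -1.62 (adjusted p = 0.00504) and Dao, the D-amino acid oxidase, by -1.46 (adjusted p = 0.00113). Cdo1, the cysteine dioxygenase, changed by 0.86 (adjusted p = 0.00661). Among 30 tested cytochrome P450 and conjugation genes 7 were lower and 2 higher. Cyp2d26 changed by -1.83 (adjusted p = 0.0019), Cyp2j5 by -1.52 (adjusted p = 0.00912) and the flavin monooxygenase Fmo2 by -1.08 (adjusted p = 0.00526). With young library 1 left out, the lower genes numbered 2 in gluconeogenesis and ammonia handling, 3 in amino acid metabolism and 3 among cytochrome P450 and conjugation genes, and the higher ones none, 1 and 1. Beside these counts, 3.96% of all genes were lower and 3.59% higher, and 1.33% and 1.12% without young library 1.

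In fatty acid oxidation, the main fuel pathway of the proximal cell, 1 of 35 tested genes was higher and 2 were lower (median -0.02), near the 7.54% of all genes that were called. Decr2, an auxiliary peroxisomal reductase, changed by 0.71 (adjusted p = 0.0429), Cpt2, the inner carnitine palmitoyltransferase, by -0.56 (adjusted p = 0.0437) and the peroxisomal enzyme Ehhadh by -0.93 (adjusted p = 0.0445). All 3 calls were lost without young library 1. Ppara, its main transcription factor, was at 20.5, 22.6 and 24.3 CPM in the young libraries and 14, 19.7, 17 and 25 CPM in the old ones (log2 fold change -0.27 ± 0.21 (SE), edgeR adjusted p = 0.488). Nuclear genes of oxidative phosphorylation gave 2 lower and none higher of 32 (median -0.09). Ndufb3 of complex I changed by -0.42 (adjusted p = 0.0466), a call lost without young library 1. Ndufb8 of the same complex was at 1915, 1608 and 1443 CPM in the young libraries and 1074, 984, 1157 and 876 CPM in the old ones (log2 fold change -0.73 ± 0.15 (SE), edgeR adjusted p = 0.0115), a call lost without young library 1 (adjusted p = 0.0633). NRF2 targets and antioxidant genes gave 1 lower, the transketolase Tkt at -0.82 (adjusted p = 0.0175), of 23. The call of Tkt was lost without young library 1.

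Of 21 tested transcription factors of the tubule 3 were higher and 4 lower (median -0.18). The count was 1 higher and none lower of 21 without young library 1. The shares over all genes were 3.59% higher and 3.96% lower, and 1.12% and 1.33% without that library. Hnf4a, the proximal identity factor, was at 28.9, 28.2 and 21.5 CPM in the young libraries and 7.18, 17.5, 11.4 and 12.9 CPM in the old ones (log2 fold change -1.12 ± 0.26 (SE), edgeR adjusted p = 0.0233). Every old library was below every young one, and without young library 1 the value was -1.05 (adjusted p = 0.102). Tfcp2l1, a factor of the collecting duct, was at 618, 819 and 1005 CPM in the young libraries and 1303, 1385, 1379 and 1840.0 CPM in the old ones (log2 fold change 0.83 ± 0.18 (SE), edgeR adjusted p = 0.0153). Old library 4 was the highest, and without young library 1 the value was 0.66 (adjusted p = 0.0678). Nr3c2, the mineralocorticoid receptor, changed by 0.66 (adjusted p = 0.0194) and Nr3c1, the glucocorticoid receptor, by -0.54 (adjusted p = 0.0214). Both calls were lost without young library 1. Esr1, the estrogen receptor alpha gene, was at 3.65, 8.78 and 9.86 CPM in the young libraries and 32.6, 17.5, 28.7 and 35.9 CPM in the old ones (log2 fold change 1.92 ± 0.33 (SE), edgeR adjusted p = 0.00496). Young library 1 was the lowest, no libraries overlapped between the ages, and the value without it was 1.58 (adjusted p = 0.0242).

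Several collecting duct genes were higher in old tubular cells while Aqp2, Slc12a3 and Umod were not called. Of 7 tested principal cell markers 3 were higher and 1 lower (median 0.55), and of 8 intercalated cell markers 3 were higher and none lower (median 0.57). Of 7 distal convoluted tubule markers 1 was higher (median 0.00) and of 7 loop of Henle markers 1 was higher (median -0.18). Without young library 1 the counts were 3 higher and 1 lower, 1 higher, 1 higher and 0 higher. The shares over all genes were 3.59% higher and 3.96% lower, and 1.12% and 1.33% without that library. The counts rest on few genes. The summed lists overlapped between the ages for all 4: 2154 to 4667 CPM in young and 3661 to 5117 CPM in old libraries for principal cells, 4296 to 9627 and 7662 to 10519.7 CPM for intercalated cells, 2387 to 4971 and 4192 to 6144 CPM for the distal convoluted tubule, and 1548 to 2969 and 1252 to 2497 CPM for the loop. Young library 1 had the highest loop and distal convoluted sums and the lowest collecting duct sums of the young group, and young library 3 the reverse.

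**Figure D4:**
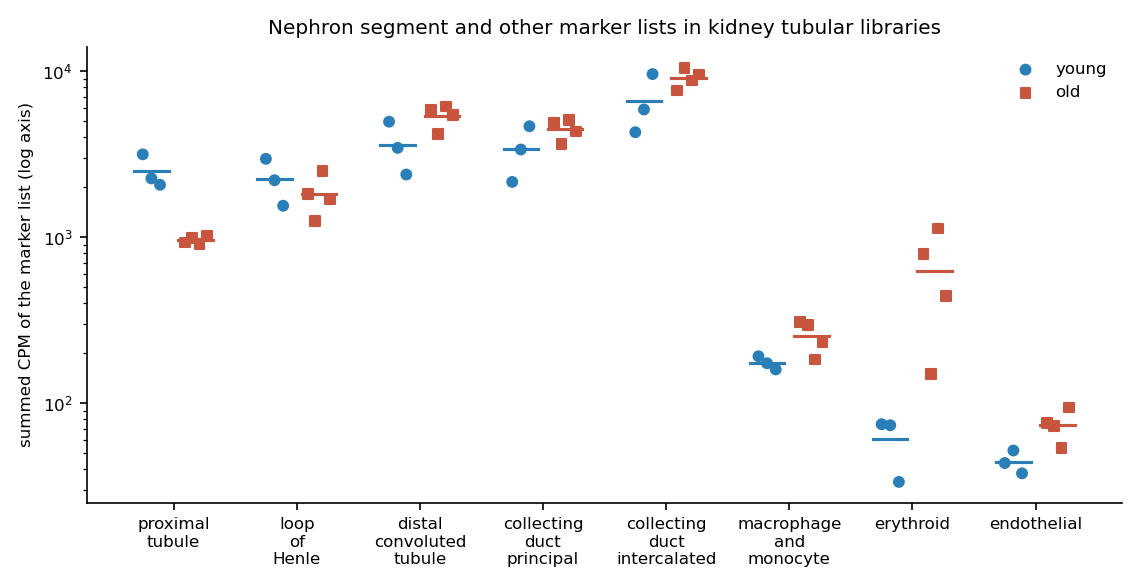
Summed CPM of 8 marker lists in each kidney tubular library on a log axis (circles young, squares old, bars group means). The proximal tubule sum falls without overlap, the collecting duct and distal sums overlap, and the erythroid sum rises without overlap.

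Slc26a4, pendrin, the chloride-bicarbonate exchanger of base-secreting intercalated cells, was at 302, 493 and 583 CPM in the young libraries and 1187, 1228, 1265 and 1137 CPM in the old ones (log2 fold change 1.36 ± 0.19 (SE), edgeR adjusted p = 0.00168). The old libraries were almost equal and all above the young ones, and the value without young library 1 was 1.13 (adjusted p = 0.00428). Slc4a9, their basolateral partner carrier, was at 132, 205 and 287 CPM in the young libraries and 300.4, 359.7, 345 and 474 CPM in the old ones (log2 fold change 0.80 ± 0.22 (SE), edgeR adjusted p = 0.0486), and Atp6v0d2, a proton pump subunit, changed by 0.71 (adjusted p = 0.0461). Both calls were lost without young library 1 (adjusted p = 0.16 and 0.159). Slc4a1, the exchanger of acid-secreting intercalated cells, had a log2 fold change of 0.46 (adjusted p = 0.369) and Atp6v1g3 of 0.21 (adjusted p = 0.632).

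Aqp3, the basolateral water channel of principal cells, was at 260.4, 416 and 486 CPM in the young libraries and 1058, 932, 989 and 1091 CPM in the old ones (log2 fold change 1.36 ± 0.19 (SE), edgeR adjusted p = 0.00149). Aqp4, the other basolateral water channel, fell, from 65.7, 125 and 235 CPM in the young libraries to 46.6, 43.3, 60.9 and 53.5 CPM in the old ones (log2 fold change -1.50 ± 0.31 (SE), edgeR adjusted p = 0.0125). The young libraries of Aqp4 were spread widely while the old ones were close together, and the value was -1.85 (adjusted p = 0.00294) without young library 1. Aqp2, the apical water channel that vasopressin controls, had a log2 fold change of 0.05 (adjusted p = 0.936). The sodium channel subunit Scnn1b changed by 1.04 (adjusted p = 0.00168), and Hsd11b2, which protects the mineralocorticoid receptor from glucocorticoids, by 0.89 (adjusted p = 0.00609). Both kept their call without young library 1, at 0.91 (adjusted p = 0.0127) and 0.88 (adjusted p = 0.0362). Ptger3, a prostaglandin receptor gene of the loop, changed by 0.52 (adjusted p = 0.0456), a call lost without young library 1. Tmem52b, a distal tubule membrane gene, was at 2169, 1898 and 1553 CPM in the young libraries and 3777, 3021, 4061 and 3544 CPM in the old ones (log2 fold change 0.91 ± 0.16 (SE), edgeR adjusted p = 0.00589). Slc12a3, the thiazide-sensitive salt carrier, had a log2 fold change of -0.03 (adjusted p = 0.965) and Umod, the loop's secreted uromodulin, of -0.18 (adjusted p = 0.698).

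Injury genes had no shared direction. Of 30 tested tubule injury and repair genes 4 were higher and 3 lower (median 0.09), and 2 and 2 without young library 1. The log2 fold change was positive in 15 and negative in 15. Of all genes tested, 3.59% were higher and 3.96% lower, and 1.12% and 1.33% without young library 1. Lcn2, the siderophore-binding lipocalin that injured tubules secrete, was at 7.67, 8.31 and 6.69 CPM in the young libraries and 32.3, 25.6, 29.2 and 26.1 CPM in the old ones (log2 fold change 1.88 ± 0.21 (SE), edgeR adjusted p = 6.10e-04). No old library came near a young one, and the value was 1.88 (adjusted p = 0.00428) without young library 1. Clu, the secreted chaperone clusterin, was at 815, 639 and 551 CPM in the young libraries and 2029, 1736, 1873 and 1537 CPM in the old ones (log2 fold change 1.39 ± 0.16 (SE), edgeR adjusted p = 7.71e-04), again without overlap, and 1.55 (adjusted p = 0.00285) without young library 1. Havcr1, the kidney injury molecule gene of the proximal tubule, was at 9.49, 4.16 and 2.82 CPM in the young libraries and 6.85, 12.6, 7.23 and 3.16 CPM in the old ones (log2 fold change 0.39 ± 0.49 (SE), edgeR adjusted p = 0.691), with overlap. Vcam1, an adhesion gene of repairing tubules, had a log2 fold change of -0.52 (adjusted p = 0.11). Cdh6 and Igfbp7 fell by 1.16 and 0.93 on the log2 scale (adjusted p = 0.00262 and 0.00154).

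Matrix and junction genes that passed the test were nearly all lower. Of 29 tested extracellular matrix and TGF-beta genes 10 were lower and 1, the receptor gene Tgfbr1, was higher (median -0.45). With young library 1 left out 3 of 29 were lower. Beside this list and the junction list, 3.96% of all genes were lower and 3.59% higher, and 1.33% and 1.12% without young library 1. Col4a3, a chain of basement membrane collagen, was at 364, 291 and 328 CPM in the young libraries and 194, 173, 190.3 and 156 CPM in the old ones (log2 fold change -0.91 ± 0.13 (SE), edgeR adjusted p = 0.00154). Col4a2 changed by -0.70 (adjusted p = 0.0126), the laminin gene Lamb1 by -1.09 (adjusted p = 0.00154) and the crosslinking enzyme Tgm2 by -1.30 (adjusted p = 0.00151). Every one of these was lower in each old library than in each young one, and of the 4 only Col4a2 lost its call without young library 1, at -0.59 (adjusted p = 0.0848). Of 22 tested junction and polarity genes 4 were lower and none higher: Cldn2, Cdh6, the tight junction scaffold Tjp1 at -1.31 (adjusted p = 0.00336) and cingulin, Cgn, at -0.68 (adjusted p = 0.00605). All 4 kept their call without young library 1.

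Genes of MHC class II antigen presentation, whose products hand peptides to helper T cells and are carried mainly by immune cells, were higher in old tubular libraries: 7 of 8 tested, with none lower and a median log2 fold change of 2.11. Of 11 listed genes 8 passed the filter on low counts. Leaving out young library 1, 4 of 9 were higher, namely Cd74, H2-Aa, H2-Ab1 and the protease gene Ctss. The share of all genes that were higher was 3.59%, and 1.12% without young library 1. The list summed to 146 ± 53.2 CPM (SD, n = 3) in young and 754 ± 347 CPM (n = 4) in old libraries with no overlap, and the difference of the means was 608 CPM, or 457 CPM without old library 2, which had the most. The upstream sequences of H2-Aa and H2-Eb1, which rose, and of H2-DMb1, which was not called, are shown because class II promoters are known for a shared Y box, here searched as GATTGG on both strands (capitals). H2-Eb1 and H2-DMb1 were chosen after their values were seen. The 150 bases before the gene start are from RefSeq (GRCm38.p6), at chr17:34287824-34287973, minus strand for H2-Aa, chr17:34305717-34305866, plus strand for H2-Eb1 and chr17:34153041-34153190, plus strand for H2-DMb1. CCAATC in capitals is the motif on the opposite strand.

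H2-Aa: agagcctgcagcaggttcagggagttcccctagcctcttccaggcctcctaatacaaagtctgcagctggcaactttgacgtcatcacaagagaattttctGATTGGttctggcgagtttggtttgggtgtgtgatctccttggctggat
H2-Eb1: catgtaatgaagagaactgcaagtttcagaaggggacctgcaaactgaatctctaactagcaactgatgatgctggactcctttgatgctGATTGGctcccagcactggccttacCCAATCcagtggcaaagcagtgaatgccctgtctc
H2-DMb1: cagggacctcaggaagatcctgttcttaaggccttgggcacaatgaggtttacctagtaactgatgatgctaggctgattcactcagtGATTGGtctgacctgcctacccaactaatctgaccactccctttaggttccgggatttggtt

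The letters were found in 6 of 8 class II genes with a window, in none of 11 proximal tubule markers and in 10.9% of all 32851 windows. H2-Aa was at 12.1, 26.8 and 5.63 CPM in the young libraries and 146, 221, 61.2 and 94.4 CPM in the old ones (log2 fold change 3.15 ± 0.50 (SE), edgeR adjusted p = 0.0031). Old library 2 was the highest and old library 3 the lowest of the old group, and no young library reached it. Cd74, the invariant chain, was at 33.2, 53.1 and 22.2 CPM in the young libraries and 261, 376, 134 and 177 CPM in the old ones (log2 fold change 2.69 ± 0.36 (SE), edgeR adjusted p = 0.00147), with the same order of libraries. Ciita, the class II transactivator, changed by 2.15 (adjusted p = 0.0212), a call lost without young library 1 (adjusted p = 0.106). H2-DMb1, a peptide loading chain, had a log2 fold change of 0.54 (adjusted p = 0.156). Of 15 tested class I presentation genes 4 were higher and none lower (median 0.39), where 3.59% of all genes were higher. H2-K1, a class I heavy chain, was at 213, 205 and 231 CPM in the young libraries and 413, 332, 277 and 319.5 CPM in the old ones (log2 fold change 0.60 ± 0.14 (SE), edgeR adjusted p = 0.0233), and the immunoproteasome subunits Psmb8 and Psmb9 changed by 1.13 (adjusted p = 0.022) and 1.94 (adjusted p = 0.0218). Tapbp, the tapasin of peptide loading, changed by 0.71 (adjusted p = 0.0271), a call lost without young library 1. All 4 class I calls were lost without young library 1. Reads of near-identical class I and class II copies may be split between genes.

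Immune cell markers moved beside these genes. Of 7 tested macrophage and monocyte markers of 9, 5 were higher and 1 lower, and the list summed to 159 to 191 CPM in young and 183 to 309.5 CPM in old libraries, with overlap. The counts were 3 higher and 1 lower without young library 1. All genes tested gave 3.59% higher and 3.96% lower, and 1.12% and 1.33% without that library. C1qb, a chain of complement C1q, was at 5.11, 6.47 and 3.87 CPM in the young libraries and 44, 54.7, 20.3 and 23.2 CPM in the old ones (log2 fold change 2.76 ± 0.40 (SE), edgeR adjusted p = 0.0019). C1qa and C1qc changed by 2.03 (adjusted p = 0.0014) and 2.07 (adjusted p = 0.00386). Csf1r, the macrophage growth factor receptor, moved the opposite way, from 104, 89.6 and 77.8 CPM to 39.5, 51.1, 31.2 and 42.4 CPM (log2 fold change -1.18 ± 0.17 (SE), edgeR adjusted p = 0.00185). Csf1r was a large part of the young sums of the list, so the overlap of the sums depends on it. As a median of member log2 CPM the list changed by 1.86 (old minus young). The 6 B cell markers, none with enough counts to test, summed to 0 to 2.19 CPM in young libraries and to 4.57, 44, 4.45 and 3.16 CPM in the old ones, so that old library 2 led as it did for H2-Aa and Cd74. T and NK cell markers summed to 2.11 to 6 and 6.33 to 14.7 CPM, plasma cell markers to 1.39 to 3.52 and 8.81 to 24.3 CPM, and neutrophil markers to 2.11 to 4.62 and 1.95 to 4.22 CPM. Cd79a of the B cell receptor and Ly6g of neutrophils were at 0 in every young library, and Ms4a1, the CD20 gene, was at most 0.462 CPM in young libraries and reached 19.4 CPM in an old one. Jchain, the joining chain of secreted antibody, was at 0, 0.462 and 0.704 CPM in the young libraries and 5.87, 17.8, 15.3 and 20.04 CPM in the old ones (log2 fold change 5.09 ± 0.67 (SE), edgeR adjusted p = 0.00132). The part of immune cells in the class II result was not tested.

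Globin genes rose in old libraries and are the mark of red cell RNA. All 4 that were tested were higher, and the erythroid list summed to 33.4 to 74.5 CPM in young and 150.4 to 1128 CPM in old libraries. Hbb-bs was at 48.6, 49.4 and 22.5 CPM in the young libraries and 481, 93.1, 689 and 263 CPM in the old ones (log2 fold change 3.23 ± 0.56 (SE), edgeR adjusted p = 0.00504). Old library 2, the highest for class II, was the lowest old library for globins. The near-identical copies Hba-a1 and Hba-a2 changed by 3.63 and 3.99, and reads may be split between them. The part of red cell RNA in the other results was not tested. Of the endothelial and the stromal markers none was called, and the endothelial list summed to 37.7 to 51.7 CPM in young and 53.7 to 93.9 CPM in old libraries.

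**Figure D5:**
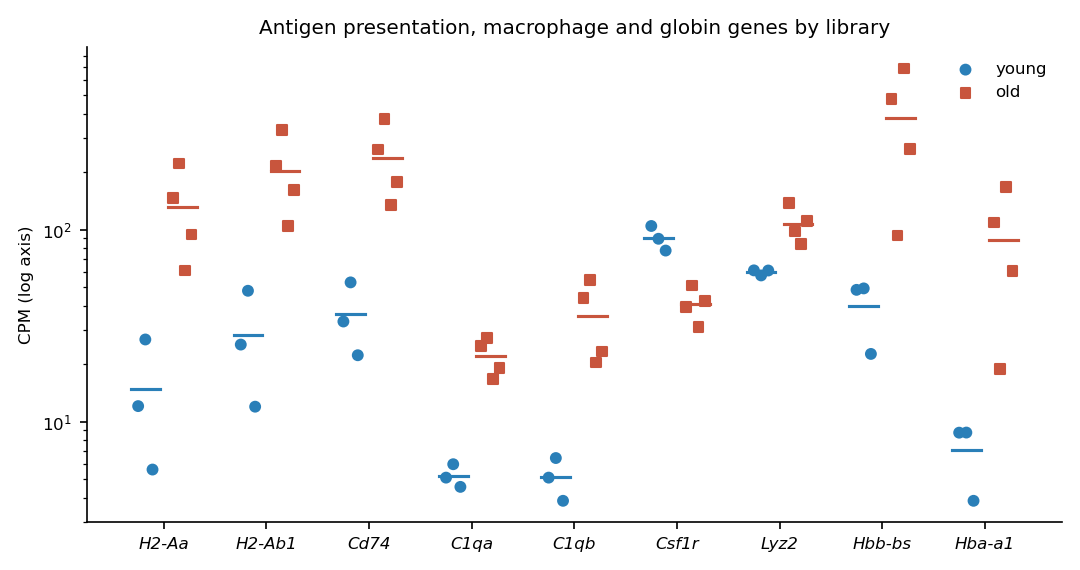
CPM of 9 genes of antigen presentation, macrophages and red cells in each kidney tubular library on a log axis (circles young, squares old, bars group means). All but Csf1r are higher in every old library than in every young one; Csf1r falls from a mean of 90.6 to 41 CPM.

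The 4 inflammatory lists gave no more than 2 calls each, where 7.54% of all genes were called, so nothing is read from their counts. Of 29 tested interferon-stimulated genes 2 were lower and none higher (median 0.15): Ifit3, an antiviral RNA-binding gene, was at 312, 236 and 235 CPM in the young libraries and 144, 107, 109 and 88.8 CPM in the old ones (log2 fold change -1.25 ± 0.17 (SE), edgeR adjusted p = 0.0014), and its neighbour copy Ifit3b changed by -0.92 (adjusted p = 0.00419). Reads may be split between those copies. No gene was called among 18 of NF-kB and innate sensing, and Lcn2 alone was called among 11 chemokines and secreted factors. Of 11 tested complement genes 1 was higher and 1 lower. C3, the central complement protein, was at 89.5, 72.1 and 25.3 CPM in the young libraries and 9.46, 15.2, 8.9 and 8.44 CPM in the old ones (log2 fold change -2.61 ± 0.36 (SE), edgeR adjusted p = 0.00154). The young libraries were spread over a wide range, all above the old ones, and the value without young library 1 was -2.25 (adjusted p = 0.0122). C5ar1, the receptor of the C5a fragment, was at 0.73, 0.924 and 0 CPM in the young libraries and 3.26, 6.15, 4.45 and 7.12 CPM in the old ones (log2 fold change 3.21 ± 0.63 (SE), edgeR adjusted p = 0.0102).

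Senescence and cell cycle inhibitor genes gave 1 higher and 2 lower of 15 tested (median -0.03), and none higher and 1 lower without young library 1. Of all genes tested, 3.59% were higher and 3.96% lower. The count rests on few genes, so nothing is read from it. Cdkn1a, the p53-induced cell cycle inhibitor, was at 114, 72.1 and 87.3 CPM in the young libraries and 97.5, 108, 95.2 and 82.3 CPM in the old ones (log2 fold change 0.04 ± 0.16 (SE), edgeR adjusted p = 0.908). The groups overlapped. Cdkn2a had too few counts to test, with 0.647 CPM at most. Cdkn2c, an inhibitor of the same family, was at 1.46, 3.23 and 4.93 CPM in the young libraries and 7.18, 12.6, 12 and 12.7 CPM in the old ones (log2 fold change 1.75 ± 0.39 (SE), edgeR adjusted p = 0.0189), a call lost without young library 1 (adjusted p = 0.0891). Cdkn2b changed by -1.07 (adjusted p = 0.00563) and the stress cytokine Gdf15 by -0.98 (adjusted p = 0.021). Proliferation genes gave 1 lower, the condensin gene Smc4 at -0.48 (adjusted p = 0.044), and none higher of 27, where 7.54% of all genes were called. Immediate-early and heat shock genes, which respond to tissue handling, gave 1 higher, Jund at 0.71 (adjusted p = 0.0175), and 3 lower of 25, the heat shock genes Hspa1b at -0.96 (adjusted p = 0.0143) and Hsph1 at -0.59 (adjusted p = 0.0279) and the immediate-early gene Ier5 at -1.10 (adjusted p = 0.0474). Clock genes gave 2 higher, the repressors Bhlhe40 at 0.64 (adjusted p = 0.0158) and Bhlhe41 at 1.02 (adjusted p = 0.0218), and 1 lower, the nuclear receptor Rora at -0.67 (adjusted p = 0.00511), of 18. Time of collection was not given in the labels used here. Unfolded protein response genes gave 2 higher of 20, the chaperones Canx at 0.63 (adjusted p = 0.0303) and Pdia4 at 0.58 (adjusted p = 0.0367), and DNA methylation and demethylation genes gave no call among 12. The counts of these last lists, and of proliferation genes, rest on 2 genes or fewer. Without young library 1, the calls of Gdf15, Smc4, Jund, Hsph1, Ier5, Bhlhe40, Bhlhe41, Canx and Pdia4 were lost.

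A pair of sulfotransferase genes were among the 12 largest rises chosen by the rule for named genes. Sult5a1 was at 6.21, 6 and 7.39 CPM in the young libraries and 53.2, 57.6, 53.1 and 55.4 CPM in the old ones (log2 fold change 3.02 ± 0.18 (SE), edgeR adjusted p = 4.71e-06). All 4 old libraries were nearly equal, and the value was 2.98 (adjusted p = 1.32e-04) without young library 1. Sult2a3 was at 6.21, 8.31 and 3.87 CPM in the young libraries and 117, 76, 147 and 60.9 CPM in the old ones (log2 fold change 4.03 ± 0.37 (SE), edgeR adjusted p = 3.02e-04), and reads of its close copies may be split between them. Grem1, a secreted BMP antagonist, was at 2.56, 2.77 and 2.11 CPM in the young libraries and 32.6, 11, 21.1 and 35.6 CPM in the old ones (log2 fold change 3.30 ± 0.45 (SE), edgeR adjusted p = 0.00147). Every young library was under 3 CPM. Laptm5, a lysosomal gene of blood cells, changed by 3.04 (adjusted p = 0.0019), beside the immune markers above. Cyp4a12a, a fatty acid hydroxylase that male kidney carries at a higher level, was at 1.83, 0.924 and 0.704 CPM in the young libraries and 15.7, 15.8, 10.6 and 9.23 CPM in the old ones (log2 fold change 3.38 ± 0.43 (SE), edgeR adjusted p = 0.00106), so it rose while Kap of the same list fell by 2.90 on the log2 scale (adjusted p = 0.0267). The Kap call was lost when any of young libraries 1 and 2 and old libraries 1, 3 and 4 was left out, with an adjusted p of up to 0.0861.

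Of the other genes with the largest fall, Lypd2, a small membrane-anchored protein gene, was at 242, 145 and 94.7 CPM in the young libraries and 45.7, 28.1, 29.5 and 30.6 CPM in the old ones (log2 fold change -2.30 ± 0.27 (SE), edgeR adjusted p = 7.71e-04). Sptssb, a small subunit of serine palmitoyltransferase, was at 17.5, 17.6 and 33.4 CPM in the young libraries and 3.26, 8.09, 3.62 and 2.64 CPM in the old ones (log2 fold change -2.42 ± 0.37 (SE), edgeR adjusted p = 0.00261). Young library 3 was the highest for Sptssb and the lowest of its group for Lypd2. Cpn1, the carboxypeptidase N gene, changed by -2.18 (adjusted p = 0.00438), the methyltransferase Inmt by -2.0 (adjusted p = 0.00494) and the thyroid hormone deiodinase Dio1 by -1.87 (adjusted p = 0.00137). Tmem86a, Cdh13 and the nuclear receptor gene Nr2e3 changed by -1.93 (adjusted p = 5.96e-04), -1.89 (adjusted p = 0.00147) and -1.93 (adjusted p = 8.07e-04). All 8 had no overlap between the ages, as the naming rule asks, and kept their call without young library 1. Wt1, a podocyte transcription factor, fell from 25.2, 18 and 4.22 CPM in the young libraries to 1.3, 1.62, 2.78 and 2.64 CPM in the old ones (log2 fold change -2.90 ± 0.52 (SE), edgeR adjusted p = 0.00629), and the call was lost without young library 1 (adjusted p = 0.0507). The podocyte list as a whole summed to 66.1 to 74.6 CPM in young and 72.3 to 106 CPM in old libraries, and the other 4 podocyte markers tested were not called.

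Whether the age change differed from that of kidney endothelial cells was tested by the interaction of cell type and age over 14 libraries. The difference passed the threshold in 129 of 14882 genes (0.867%), with 58 (0.39%) higher and 71 (0.477%) lower in tubular cells. DESeq2 gave 151 and 168, and leaving out 1 library at a time gave 27 to 133 and 35 to 115, with the most and the fewest higher calls without endothelial young library 1 and endothelial old library 2 and the most and the fewest lower calls without tubular young libraries 3 and 1. Endothelial young library 1 also carried Ddx3y, at 59.1 CPM, while the other 6 endothelial libraries had at most 1.02 CPM.

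Of the genes named above, some proximal genes changed differently in the 2 cell types, while others were not shown to. Enpep had a difference of -1.64 ± 0.28 (SE, edgeR adjusted p = 0.00474), Ggt1 of -2.09 ± 0.40 (SE, edgeR adjusted p = 0.0103), Alpl of -2.24 ± 0.30 (SE, edgeR adjusted p = 5.24e-04) and Agt of -1.79 ± 0.40 (SE, edgeR adjusted p = 0.0328). Alpl was at 73.4 ± 14.8 CPM in young endothelial libraries (SD, n = 4) and 134 ± 11.9 CPM in old ones (n = 3), so its mean was higher in old endothelial and lower in old tubular libraries. Clu and C1qb had positive differences of 1.04 ± 0.23 (SE, edgeR adjusted p = 0.0291) and 2.52 ± 0.56 (SE, edgeR adjusted p = 0.0328). For Lrp2 and Slc34a1 the differences were -0.59 ± 0.29 (SE, edgeR adjusted p = 0.376) and -0.89 ± 0.40 (SE, edgeR adjusted p = 0.313), and for H2-Aa and Cd74 0.98 ± 0.59 (SE, edgeR adjusted p = 0.48) and -0.27 ± 0.46 (SE, edgeR adjusted p = 0.855), so none of these 4 was shown to differ between the cell types. Nor were Aqp1 at -0.25 (edgeR adjusted p = 0.768), Gatm at -0.78 (edgeR adjusted p = 0.279) and Acsm2 at -1.51 (edgeR adjusted p = 0.148). The summed proximal tubule list averaged 861 CPM in young and 515 CPM in old endothelial libraries, so its mean was lower with age there too. Aqp1 alone averaged 433 CPM in young and 164 CPM in old endothelial libraries, so the fall of that sum came largely from Aqp1. Lrp2 averaged 43.7 and 32.2 CPM there, and Slc34a1 109 and 72.9 CPM.

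Among all genes the lowest differences included Slc4a11, a borate and proton transporter family member, at -2.97 ± 0.59 (SE, edgeR adjusted p = 0.0132). Its means were 239 ± 70.8 CPM in young tubular libraries (SD, n = 3), 73.3 ± 13.7 CPM in old ones (n = 4), 2.72 ± 1.78 CPM in young endothelial libraries (n = 4) and 5.81 ± 2.05 CPM in old ones (n = 3). Bst1, an ecto-enzyme that uses NAD, had a difference of -2.39 ± 0.36 (SE, edgeR adjusted p = 0.00212) and means of 305 ± 28.2 CPM in young tubular libraries (SD, n = 3), 148 ± 41.1 CPM in old ones (n = 4), 10.3 ± 3.9 CPM in young endothelial libraries (n = 4) and 24.4 ± 7.2 CPM in old ones (n = 3). In both genes the tubular mean was lower and the endothelial mean higher in old libraries. The highest differences included Itga8, an integrin of mesangial and mural cells, at 3.41 ± 0.61 (SE, edgeR adjusted p = 0.00638), with means of 8.18 ± 4.99 CPM in young tubular libraries (SD, n = 3), 22.5 ± 10.8 CPM in old ones (n = 4), 153 ± 75.7 CPM in young endothelial libraries (n = 4) and 36.4 ± 12.1 CPM in old ones (n = 3). Clec1a, a lectin receptor gene of endothelial cells, had a difference of 3.21 ± 0.38 (SE, edgeR adjusted p = 2.10e-04) and rose within the tubular libraries (log2 fold change 3.25, edgeR adjusted p = 8.07e-04), with means of 1.79 ± 0.33 CPM in young tubular libraries (SD, n = 3), 19 ± 6.34 CPM in old ones (n = 4), 275 ± 15.6 CPM in young endothelial libraries (n = 4) and 283 ± 34.7 CPM in old ones (n = 3).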

How the data were processed

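The authors deposited 1 table of read counts per gene and library, whole numbers that are not normalized. Per the submitters' processing notes, reads were aligned with STAR to GRCm38.p6 (mm10) and counted with featureCounts 2.0.1. The libraries were 3′ libraries that carried, per the labels' protocols, an index of 8 bp and a molecular identifier of 10 bp. Whether identifiers served to remove copies is not stated in the labels.

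From the deposited counts of the 7 tubular libraries, genes with at least 10 counts in enough libraries and 15 in total (filterByExpr) were scaled by TMM and tested with edgeR 4.0.16 (quasi-likelihood) in R 4.3.3, with Benjamini-Hochberg adjustment over all genes tested and a threshold of 0.05. The SE given with a log2 fold change or difference is its size divided by the square root of the edgeR F statistic. It is thus derived from the test and is not a separate estimate. The fit was tested on simulated data. Sums of marker lists were compared by exact permutation over libraries (scipy 1.17.1). The interaction with kidney endothelial cells used 14 libraries. Alternatives were other size factors, no filter, DESeq2 1.42.0, a replicate block and leaving out each library, and young library 1 and old library 2 together, the last chosen after seeing the data. Depth was 2064753 to 3939847 counts a library, and 41713 of 55484 genes had too few counts to test.

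The comparison, the gene lists and the named genes were chosen with earlier results of these data known. Named were, first, the 12 largest rises and the 12 largest falls of called genes whose libraries did not overlap between ages and whose higher group averaged 20 CPM or more, leaving out sex-linked, unnamed, antisense, pseudogene and antigen receptor genes, a list of key genes, up to 4 called members of each list, and 5 interaction genes in each direction. Other genes, such as Slc22a6, H2-Eb1, H2-DMb1, Aqp2, Slc4a1, Tgfbr1 and Lyz2, were chosen after their values were seen. Some results that the rule names are not reported here. Gene spans are from GENCODE M21 (GRCm38).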

Additional observations from a re-analysis of the deposited data

Results flagged for a closer look

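In the 4 old libraries, 11 of 149 values examined had 1 library far from the other 3 by Dixon's gap test. Chance does so in about 1 of 20 groups, but the values were not independent, so nothing is read from the count. Old library 2 was the far one in 5 of them: Kap at 216 CPM, C3 at 15.2 CPM, Cyp2d26 at 9.06 CPM, the B cell sum at 44 CPM and the sum of genes higher in male kidney at 256 CPM. That last sum includes Kap, which made up most of it. Old library 1 was far for Lypd2 at 45.7 CPM, Slc34a1 at 102 CPM and Cdkn2c at 7.18 CPM. Old library 4 was far for Tfcp2l1 at 1840.0 CPM. Eif2s3y at 0.556 CPM and Kdm5d at 0.278 CPM were above 0 in old library 3 alone among the old libraries, which by itself fixes the outcome of the gap test.

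The age change differed between tubular and endothelial cells for 10 named genes (edgeR interaction, log2 difference tubular minus endothelial). Lower in tubular cells were Slc4a11 at -2.97, Cldn15 at -2.81, Enpp6 at -2.66, Stk32a at -2.53 and Bst1 at -2.39. Higher were Itga8 at 3.41, Clec1a at 3.21, Pdgfrb at 2.98, Mndal at 2.82 and Rtn4rl1 at 2.79. Of the 14 fits that leave out 1 library each, Stk32a lost its call in 10, Rtn4rl1 in 5 and Slc4a11 in 1, and the other 7 kept theirs. Itga8 was lower in old endothelial libraries, at 153 ± 75.7 CPM in young (SD, n = 4) and 36.4 ± 12.1 CPM in old ones (n = 3), and was not called within tubular cells (adjusted p = 0.0953).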

How the results depend on the processing

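With 7 libraries 494 genes were higher and 545 lower with age. No filter on low counts gave 971 and 767, DESeq2 618 and 546, RLE size factors 500 and 513, and leaving out 1 library 160 to 540 and 189 to 528, the fewest without young library 1. Leaving out young library 1 and old library 2 gave 221 and 190. Members of the pathway lists were 33 higher and 82 lower, 61 higher with no filter, 16 and 38 without those 2 libraries, and 13 to 36 and 34 to 98 with 1 library left out. The age change differed between the cell types in 58 genes upward and 71 downward, in 335 and 131 with no filter, 151 and 168 with DESeq2, and 27 to 133 and 35 to 115 with 1 library left out.

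Replicate numbers gave no sign of pairing by correlation: old and young tubular libraries of the same number had correlations of deviations of 0.0226, -0.0931 and -0.0627. Tubular and endothelial libraries of the same number had 0.00867, -0.00486 and -0.0224 in young and 0.00297, -0.0225 and 0.0286 in old. Such values cannot show whether the 2 cell types came from the same animals. Library 1 of both young groups carried Ddx3y, and the main interaction fit took all libraries as independent. A replicate block gave 195 higher and 211 lower genes, 19 and 40 list members, and 22 and 24 genes for the difference between cell types.

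Uncalled values changed sign. With 1 library left out, Kl ranged from -0.47 to 0.24 (positive without young library 1) and Cdkn1a from -0.081 to 0.23 (negative without young library 2, and -0.024 without old library 2). Without young library 1 and old library 2 together, Kl was 0.40, Umod 0.12 and Uty 0.069. As a median of member log2 CPM, the loop of Henle list was 0.58 and the distal convoluted tubule list -0.0018 (old minus young), against -427 and 1809 for the summed CPM. The cause was not tested. The other 6 summed lists examined (proximal tubule, principal cell, intercalated cell, macrophage and monocyte, erythroid and MHC class II) kept their sign under the settings run, and the remaining sums were not recomputed.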

Other observations

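Antibody genes were left out of the naming rule. The 427 immunoglobulin segments in the table summed to 16.1, 15.7 and 12.3 CPM in the young libraries and 68.5, 432, 227 and 259 CPM in the old ones, without overlap (exact permutation test over libraries, two-sided, p = 0.0571, the smallest possible). Old library 2 was the highest, as for the B cell markers, and the part of plasma cells was not tested. The 5 genes listed as higher in female kidney summed to 68.3, 147 and 55.3 CPM in the young and 49.9, 94.4, 74.8 and 72 CPM in the old libraries, with overlap. Markers of the urothelium, which lines the renal pelvis, summed to 37.7 to 39.8 CPM in young and 27.9 to 61.5 CPM in old libraries, with overlap.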
